A study of Rattus norvegicus with 12 samples.

Results

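The genes described here are 35 genes of glycolysis and glucose uptake in the fracture hematoma of the rat. They were chosen by function as glucose transporters, enzymes of glycolysis and of lactate formation, lactate transporters, pyruvate dehydrogenase kinases and glycogen phosphorylases. A gene was measured where the platform annotation gave a probe set to its symbol alone, and the probe set with the highest mean over all arrays was used. By this rule 33 of the 35 genes were measured, of 14217 genes on the array. Hk3 had no such probe set, and the probe set of Pkm was shared with a pseudogene. The mean of 31 of the 33 genes lay at or above the median of all probe set means (7.16 on the log2 scale).

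Female Sprague-Dawley rats received an osteotomy gap of 1.5 mm in the femur under an external fixator, and the tissue of the gap was collected on day 3. Age was 12 weeks (young) or 52 weeks (old). The fixator stood 15 mm from the bone in semi-rigid and 7.5 mm from it in rigid fixation. The groups are called YSR and YR for young rats with a semi-rigid and a rigid fixator, and OSR and OR for old rats likewise. Each group had 3 Affymetrix arrays, and each array carried the RNA of a separate pool of 3 animals, 9 animals per group. Pools hide the spread between single animals, so that SDs and p-values here describe the spread between pools. There was no group without an osteotomy. Levels are log2 signals, a difference of 1 is a 2-fold difference, and levels of different genes were not compared because probe sets differ in sensitivity.

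Glycolysis breaks glucose down to pyruvate and yields ATP without oxygen, and lactate dehydrogenase then turns pyruvate into lactate. Skeletal muscle uses its own isoforms of several steps (Pfkm, Pgam2, Eno3 and the glycogen phosphorylase Pygm), whereas leukocytes, fibroblasts and most other cells use general isoforms. A fracture hematoma has lost its vessels, and its leukocytes are known to depend on glycolysis. In this design the question was whether age, fixation stability or their combination altered the levels of these genes.

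Markers of blood, macrophages and fibroblasts were high on all arrays, as in a hematoma with adjoining tissue. The mean log2 signal of 9 measured macrophage markers lay between 11.68 and 13.08, that of 8 fibroblast markers between 12.84 and 13.70 and that of 6 erythroid markers between 10.09 and 13.06. Markers of skeletal muscle were also present. The mean of 15 of 16 muscle markers measured, called the muscle marker level here, was 11.53, 10.13 and 9.89 in YSR, 11.28, 10.63 and 10.39 in YR, 6.84, 12.09 and 10.80 in OSR, and 10.58, 6.53 and 8.63 in OR. All young arrays lay between 9.89 and 11.53, and the old arrays reached both the lowest and the highest level. Among the muscle markers, Myh1 did not share these low levels. It stayed at 12.45 to 14.01 and was at 13.90 in OR replicate 2, the array of lowest muscle marker level. These are values of the brightest of 5 probe sets of Myh1, and whether it measures Myh1 alone was not tested. The macrophage marker level was 12.65 to 13.08 in YSR, 12.62 to 12.84 in YR, 12.20 to 12.64 in OSR and 11.68 to 12.27 in OR. The 13.08 was that of YSR replicate 1, where the macrophage marker Adgre1 was at 13.61, against 8.49 to 10.24 on the other arrays. Over the 12 arrays the macrophage and muscle marker levels were correlated (r = 0.79). In whole tissue, fewer cells of a type and less RNA per cell cannot be told apart. The ratio of the 3' to the 5' probe set of Gapdh, a sign of RNA quality, was 6.69 on the log2 scale in YSR replicate 1 and 2.95 in OR replicate 1. It was 1.02, 1.59 and 1.38 in YR, and 0.33 to 0.49 on all remaining arrays. In comparisons with YR, this ratio and the group can therefore not be fully told apart.

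No glycolysis or glucose uptake gene differed between groups in any comparison after adjustment over all 31042 probe sets (limma, adjusted p under 0.05). The share of all probe sets called was 0% for YSR minus YR, 0% for OSR minus OR, 0.00322% for YSR minus OSR, 0.00322% for YR minus OR, 0.00644% for age averaged over fixation, 0% for fixation averaged over age, and 0% for the interaction (YSR minus YR, minus OSR minus OR). The calls were thus nearly absent for the whole array, and the differences given for single genes carry unadjusted or adjusted p-values that did not pass. The lowest adjusted p of a member was 0.207, for Pfkfb3 in the age comparison.

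What did pass a test was, for 4 members, a relation to the muscle marker level from array to array. Within groups, the slope of the log2 signal on that level passed for 4 of 33 members, all upwards, namely Pdk4 and the muscle isoforms Pgam2, Pygm and Eno3 (limma, adjusted over all probe sets). It did not pass for the muscle isoform Pfkm. Over the whole array 0.564% of probe sets had a positive and 0.0129% a negative slope that passed. These probe sets include the markers themselves, of which none is a member. This relation was chosen for testing after the data had been seen.

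**Figure D1:**
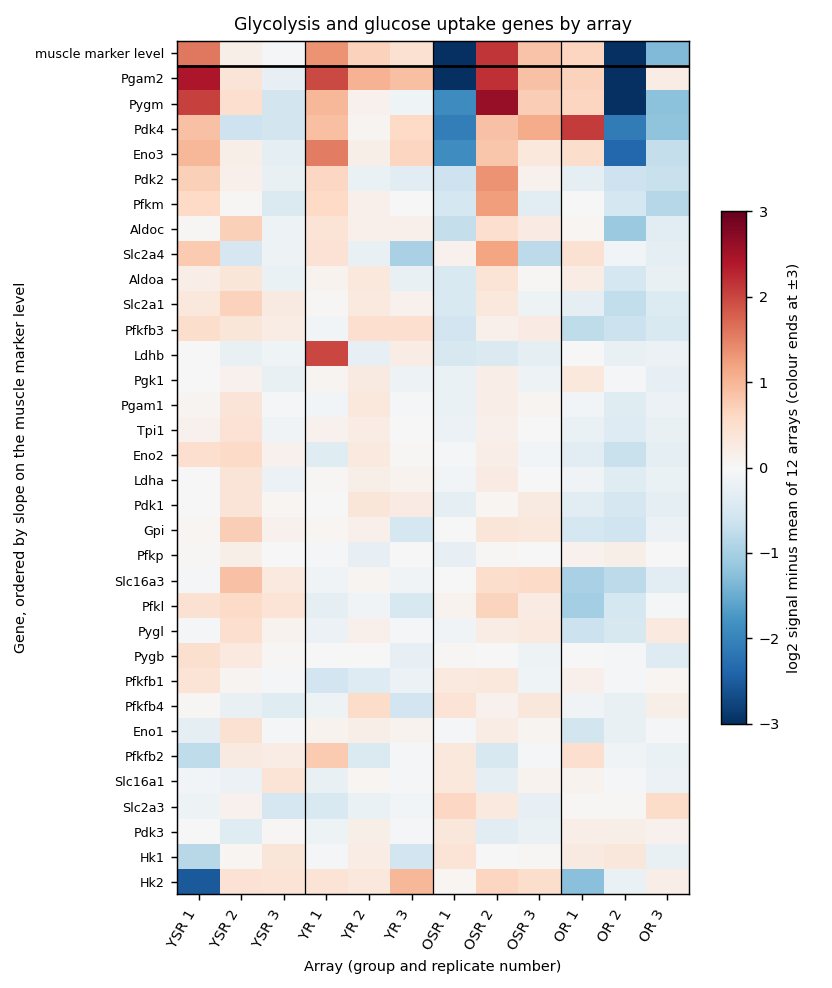
Heat map of the log2 signal of 33 members on 12 arrays, each gene relative to its own mean, with the muscle marker level in the top line. Genes are ordered by their slope on that level, so that Pgam2, Pygm, Pdk4 and Eno3 lie directly under it and share its low values in OSR replicate 1 and OR replicate 2.

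Pgam2, the muscle phosphoglycerate mutase, had log2 signals of 9.64, 7.62 and 6.99 in YSR, 9.21, 8.27 and 8.13 in YR, 2.51, 9.41 and 8.10 in OSR, and 7.93, 1.43 and 7.45 in OR. The levels of 2.51 and 1.43 were those of the arrays of lowest muscle marker level, and the other 10 arrays lay at 6.99 or above. These 2 signals were among the lowest 5.9% and 1.79% of probe sets on their arrays, whose medians were 7.36 and 7.27. Signals this low may not be above background, and the log2 differences to them are not exact. The slope was 1.44 (SE 0.146, limma adjusted p = 0.000344), and 0.99 (SE 0.0906, limma adjusted p = 0.000157) with a pseudocount of 16, which lessens the weight of low signals. Over 12 arrays Pearson's r was 0.955 (permutation p = 2e-05, adjusted 0.00941) and Spearman's rho 0.951 (permutation p = 2e-05, adjusted 0.0163). Without the 2 arrays of lowest muscle marker level r was 0.850 and the slope 0.90, which no longer passed.

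Pygm, the glycogen phosphorylase of muscle, was at 10.60, 9.04 and 8.0 in YSR, 9.54, 8.66 and 8.41 in YR, 6.64, 11.16 and 9.29 in OSR, and 9.18, 4.62 and 7.32 in OR. Again OSR replicate 1 and OR replicate 2 were the lowest, and OSR replicate 2, with the highest muscle marker level, was the highest. The slope was 0.96 (SE 0.0818, limma adjusted p = 9.18e-05), with r = 0.952 (permutation p = 1e-05, the smallest that 100000 permutations can give, adjusted 0.00634) and rho = 0.965 (permutation p = 2e-05, adjusted 0.0163). It was the only member whose slope still passed without those 2 arrays, where r was 0.939.

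Eno3, the enolase of muscle, was at 11.18, 10.34 and 9.90 in YSR, 11.71, 10.36 and 10.82 in YR, 8.30, 11.01 and 10.48 in OSR, and 10.70, 7.81 and 9.47 in OR. The same arrays were low as for Pgam2, and YR replicate 1 was highest. The slope was 0.61 (SE 0.0558, limma adjusted p = 0.000155), with r = 0.960 (permutation p = 1e-05, adjusted 0.00634) and rho = 0.909 (permutation p = 0.00012, adjusted 0.0517). Without the 2 lowest arrays r was 0.847 and the slope 0.67, which did not pass.

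Pdk4, the pyruvate dehydrogenase kinase known to be induced by fasting and fatty acids in muscle, was at 11.31, 9.82 and 9.88 in YSR, 11.33, 10.51 and 11.03 in YR, 8.36, 11.32 and 11.55 in OSR, and 12.53, 8.34 and 9.23 in OR. Its highest level was in OR replicate 1, which had less muscle marker signal than 5 other arrays, so that it followed that level less closely than the isoforms above. The slope was 0.77 (SE 0.10, limma adjusted p = 0.00265), with r = 0.872 (permutation p = 0.00028, adjusted 0.0497) and rho = 0.811 (permutation p = 0.00235, adjusted 0.212). Without the 2 lowest arrays r was 0.693 and the slope 1.01, which did not pass.

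Pfkm, the muscle phosphofructokinase, was at 9.96, 9.40 and 8.92 in YSR, 9.96, 9.52 and 9.36 in YR, 8.84, 10.61 and 9.02 in OSR, and 9.37, 8.83 and 8.51 in OR. It varied over a smaller range than Pgam2 and its lowest level was in OR replicate 3. Its slope of 0.25 (SE 0.0757) did not pass (limma adjusted p = 0.295), with r = 0.770 (permutation p = 0.00359, adjusted 0.164) and rho = 0.888 (permutation p = 0.00028, adjusted 0.0749). Without the 2 lowest arrays r was 0.918. Slc2a4, the insulin-dependent glucose transporter of muscle and fat, had r = 0.290 (permutation p = 0.361, adjusted 0.757) and rho = 0.392 (permutation p = 0.212, adjusted 0.703), its level lying between 6.14 and 8.30, and r was 0.616 without the 2 lowest arrays.

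**Figure D2:**
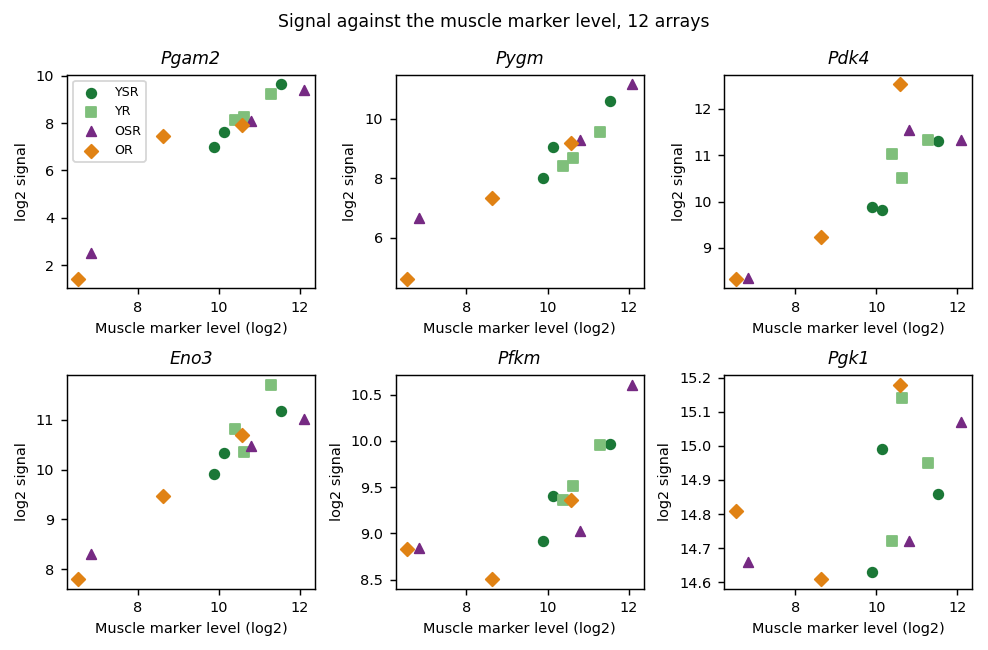
Log2 signal of 6 members (vertical axes, separate scales) against the muscle marker level (horizontal axes), 1 point per array and 1 symbol per group. Pgam2, Pygm and Eno3 rise with the level, and Pdk4 does so less closely. The 2 arrays of lowest level lie apart from the rest, and without them only the slope of Pygm passed. Pfkm, whose slope did not pass, lies between 8.51 and 10.61 and Pgk1 between 14.61 and 15.18.

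Group differences of these genes had wide errors and none passed. OSR minus OR was 1.99 for Pygm (SE 1.16, limma adjusted p = 0.905) and 1.07 for Pgam2 (SE 1.77, limma adjusted p = 0.956), and YSR minus OSR was 1.41 for Pgam2 (SE 1.77) and 0.54 for Eno3 (SE 0.740). Old minus young was -2.17 for Pgam2 (SE 1.25, limma adjusted p = 0.655), -1.09 for Eno3 (SE 0.523, limma adjusted p = 0.598) and -1.01 for Pygm (SE 0.821, limma adjusted p = 0.768). Rigid minus semi-rigid was -1.17 for Pygm (SE 0.821). The interaction was -1.65 for Pygm (SE 1.64) and -1.53 for Pgam2 (SE 2.50), both with a limma adjusted p = 0.990. Several of these turned direction without a single array or with the muscle marker level as a term.

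General isoforms of the same steps varied over smaller ranges. Pgam1, the general phosphoglycerate mutase, ranged from 13.89 to 14.64, and Eno1, the general enolase, from 13.57 to 14.57. Pygl and Pygb, the phosphorylases of liver and brain, ranged from 10.69 to 11.82 and from 9.91 to 10.79. Pfkl, at 9.28 to 10.97, spanned 1.69 against 2.10 for Pfkm, its muscle counterpart. Pgk1, the phosphoglycerate kinase of most tissues, was at 14.86, 14.99 and 14.63 in YSR, 14.95, 15.14 and 14.72 in YR, 14.66, 15.07 and 14.72 in OSR, and 15.18, 14.81 and 14.61 in OR, and all 4 groups overlapped. The SD within groups had a median of 1.63 over Pgam2, Pygm, Pdk4 and Eno3 and of 0.30 over the 29 other members, against 0.26 over the 15521 probe sets at or above the median level. Because the 4 were picked by their spread with muscle, this is a description and not a test.

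The promoters of Pgam2, Pygm and Eno3 are shown because these muscle isoforms moved with the muscle markers. They are the 250 bases before the transcription start (RefSeq, build GRCr8, 30 of the 33 members held in the table, strand of the gene, 5' to 3'). Capitals mark CAGCTG, an E-box bound by the muscle regulators of the MyoD family, which reads alike on both strands and was searched after the data had been seen. It was present in 4 of 30 member promoters (13.3%: Pgam2, Pygm, Gpi and Pygl), against 12% of all 33469 promoters of that length. The Pgam2 and Pygm promoters held 2 each and those of Eno3 and Pfkm none. Pgam2 lies at chr14:84897875-84898124 on the minus strand, Pygm at chr1:213119555-213119804 and Eno3 at chr10:55868936-55869185, both on the plus strand.
Pgam2: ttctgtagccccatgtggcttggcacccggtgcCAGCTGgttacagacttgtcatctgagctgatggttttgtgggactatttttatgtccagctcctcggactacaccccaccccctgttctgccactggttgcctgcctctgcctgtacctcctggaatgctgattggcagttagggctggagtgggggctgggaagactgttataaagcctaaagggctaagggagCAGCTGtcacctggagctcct
Pygm: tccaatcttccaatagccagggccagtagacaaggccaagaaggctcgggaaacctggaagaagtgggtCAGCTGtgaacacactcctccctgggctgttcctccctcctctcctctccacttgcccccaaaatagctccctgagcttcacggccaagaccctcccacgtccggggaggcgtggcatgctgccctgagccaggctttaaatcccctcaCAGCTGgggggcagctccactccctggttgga
Eno3: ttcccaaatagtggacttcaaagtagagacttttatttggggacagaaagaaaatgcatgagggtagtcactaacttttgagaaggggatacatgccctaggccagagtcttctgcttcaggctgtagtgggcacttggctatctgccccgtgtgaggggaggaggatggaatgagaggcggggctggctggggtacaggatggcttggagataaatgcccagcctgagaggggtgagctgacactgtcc

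Glucose enters most cells through Slc2a1 (GLUT1). Its log2 signal was 11.83, 12.21 and 11.79 in YSR, 11.55, 11.81 and 11.64 in YR, 11.06, 11.84 and 11.37 in OSR, and 11.23, 10.78 and 11.12 in OR. All OR arrays lay under all young arrays, and OSR overlapped both. Old minus young was -0.57 (SE 0.138, limma unadjusted p = 0.00123, adjusted 0.215), YR minus OR 0.62 (SE 0.195, limma adjusted p = 0.379) and YSR minus OSR 0.52 (SE 0.195, limma adjusted p = 0.959). Rigid minus semi-rigid was -0.33 (SE 0.138, limma unadjusted p = 0.0331, adjusted 0.845). With the macrophage marker level as a term in limma, the age difference was -0.32 (SE 0.204), and with the muscle marker level it was -0.42 (SE 0.120).

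Slc2a3 (GLUT3), the high-affinity transporter of neurons and leukocytes, ran the other way. It was at 9.70, 9.99 and 9.36 in YSR, 9.39, 9.65 and 9.77 in YR, 10.47, 10.15 and 9.61 in OSR, and 9.89, 9.90 and 10.41 in OR. All OR arrays were above all YR arrays, whereas YSR and OSR overlapped. Old minus young was 0.43 (SE 0.166, limma unadjusted p = 0.0240, adjusted 0.488), the only member with a positive age difference at an unadjusted p under 0.05. The 7 neutrophil markers averaged 8.50 to 10.66 on the young arrays and 9.14 to 11.76 on the old arrays. S100a8, S100a9, Mmp8, Camp and Lcn2 had higher means in old rats. The receptors Csf3r (9.7 in young, 9.6 in old) and Cxcr2 (5.3 in young, 5.1 in old) had slightly lower ones. The part of neutrophils in the Slc2a3 difference was not tested.

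Hexokinases trap glucose as glucose 6-phosphate. Hk1 ranged from 9.06 to 10.31 with overlapping groups. Hk2, the inducible hexokinase, was at 6.12, 9.09 and 9.05 in YSR, 9.06, 8.97 and 9.64 in YR, 8.71, 9.31 and 9.17 in OSR, and 7.40, 8.45 and 8.84 in OR. The low values of 6.12 and 7.40 were those of the 2 arrays with the highest 3' to 5' ratio of Gapdh, YSR replicate 1 and OR replicate 1. The interaction for Hk2 was -1.96 (SE 0.908, limma unadjusted p = 0.0503, adjusted 0.990). YSR minus YR was -1.13 (SE 0.642, limma adjusted p = 0.991) and YSR minus OSR -0.98 (SE 0.642, limma adjusted p = 0.959), and without YSR replicate 1 they were -0.15 (SE 0.361) and 0.00888. The interaction was then -0.98 (SE 0.484), and -0.57 (SE 0.347) without OR replicate 1 as well.

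Among the preparatory steps, Pfkl, the phosphofructokinase of liver and leukocytes, showed the clearest order by fixation. It was at 10.75, 10.88 and 10.70 in YSR, 10.01, 10.19 and 9.80 in YR, 10.39, 10.97 and 10.55 in OSR, and 9.28, 9.77 and 10.24 in OR. All 6 semi-rigid arrays lay above all 6 rigid arrays, which held for 0.103% of all probe sets and for no other member. Semi-rigid minus rigid was 0.78 in young (SE 0.220, limma unadjusted p = 0.00393, adjusted 0.991) and 0.87 in old rats (SE 0.220, limma unadjusted p = 0.00174, adjusted 0.872). Rigid minus semi-rigid over both ages was -0.83 (SE 0.156, limma unadjusted p = 0.000165, adjusted 0.638). It was -0.81 with the muscle marker level and -0.77 with the macrophage marker level as a term. The interaction was -0.10 (SE 0.312, limma adjusted p = 0.995).

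Gpi, glucose 6-phosphate isomerase, was at 13.41, 14.09 and 13.47 in YSR, 13.40, 13.49 and 12.81 in YR, 13.37, 13.70 and 13.67 in OSR, and 12.83, 12.74 and 13.18 in OR. All OSR arrays were above all OR arrays, and YSR and YR overlapped. OSR minus OR was 0.66 (SE 0.218, limma unadjusted p = 0.00999, adjusted 0.896) and rigid minus semi-rigid -0.54 (SE 0.154, limma adjusted p = 0.845). Tpi1, triosephosphate isomerase, was at 13.92, 14.23 and 13.69 in YSR, 13.93, 14.01 and 13.81 in YR, 13.63, 13.95 and 13.81 in OSR, and 13.61, 13.42 and 13.57 in OR. The OR arrays were below every other array. Its age difference was -0.27 (SE 0.105, limma unadjusted p = 0.0250, adjusted 0.495) and YR minus OR 0.38 (SE 0.148, limma adjusted p = 0.526), against -0.14 (SE 0.161) and 0.22 (SE 0.217) with the macrophage marker level as a term. Pfkp ranged from 10.49 to 10.92, Aldoa from 14.01 to 14.95 and Aldoc from 7.09 to 8.93. Aldoa and Aldoc, both aldolases, did not pass a test of their relation to the muscle marker level. Their slopes were 0.16 (SE 0.0407, limma adjusted p = 0.168) and 0.24 (SE 0.0611, limma adjusted p = 0.185). Over the 12 arrays r was 0.842 (permutation p = 0.00034, adjusted 0.0558) and 0.876 (permutation p = 0.00055, adjusted 0.0755), with rho = 0.713 and 0.678 (adjusted permutation p = 0.382 and 0.422) and r = 0.629 and 0.564 without the 2 lowest arrays.

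Pfkfb3 makes fructose 2,6-bisphosphate, the strongest activator of phosphofructokinase, and is a known hypoxia target. It was at 11.21, 11.04 and 10.90 in YSR, 10.61, 11.20 and 11.19 in YR, 10.11, 10.83 and 10.94 in OSR, and 9.92, 10.05 and 10.23 in OR. All OR arrays lay under all young arrays, and OSR reached from the level of OR to that of the young groups. Old minus young was -0.68 (SE 0.154, limma unadjusted p = 0.000782, adjusted 0.207), YR minus OR 0.94 (SE 0.218, limma unadjusted p = 0.000964, adjusted 0.237) and OSR minus OR 0.56 (SE 0.218, limma adjusted p = 0.901). YSR minus YR was 0.05 (SE 0.218, limma adjusted p = 0.992), and the interaction was -0.51 (SE 0.309, limma adjusted p = 0.990). With the macrophage marker level as a term, YR minus OR was 0.52 (SE 0.299), and with the muscle marker level it was 0.76 (SE 0.230). Pfkfb1, Pfkfb2 and Pfkfb4 ranged from 6.75 to 7.75, 5.97 to 7.54 and 8.06 to 9.19.

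In the later steps, Eno2, the enolase of neurons, was at 11.65, 11.72 and 11.27 in YSR, 10.77, 11.43 and 11.18 in YR, 11.08, 11.34 and 11.05 in OSR, and 10.83, 10.47 and 10.87 in OR. The OR arrays lay under all OSR and YSR arrays, and OR and YR overlapped. Its fixation difference was 0.42 in young (SE 0.185, limma unadjusted p = 0.0417, adjusted 0.991) and 0.43 in old rats (SE 0.185, limma unadjusted p = 0.0375, adjusted 0.901), semi-rigid minus rigid. Old minus young was -0.40 (SE 0.131, limma adjusted p = 0.387). With the macrophage marker level as a term, old minus young was -0.14 (SE 0.190) and OSR minus OR 0.23 (SE 0.206). Eno1 was at 13.85, 14.57 and 14.08 in YSR, 14.22, 14.30 and 14.22 in YR, 14.08, 14.34 and 14.19 in OSR, and 13.57, 13.90 and 14.08 in OR, where YR lay above OR without overlap. YR minus OR was 0.40 (SE 0.183, limma unadjusted p = 0.0499, adjusted 0.599).

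Lactate is formed by Ldha, which ranged from 14.16 to 14.90 and was higher on every YR and every OSR array than on every OR array. Slc16a3 (MCT4), the exporter of lactate from glycolytic cells, was at 12.05, 12.98 and 12.40 in YSR, 11.98, 12.19 and 11.98 in YR, 12.10, 12.62 and 12.66 in OSR, and 11.12, 11.30 and 11.78 in OR. All OR arrays were below every other array. OSR minus OR was 1.06 (SE 0.236, limma unadjusted p = 0.00067, adjusted 0.872), YR minus OR 0.65 (SE 0.236, limma adjusted p = 0.482) and rigid minus semi-rigid -0.74 (SE 0.167, limma unadjusted p = 0.000718, adjusted 0.740). The fixation difference was -0.73 with the muscle marker level and -0.72 with the macrophage marker level as a term. Slc16a1 (MCT1), the more general lactate transporter, ranged from 10.99 to 11.66 with overlapping groups.

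Ldhb, the lactate dehydrogenase subunit of heart and slow muscle, was at 8.81, 8.61 and 8.68 in YSR, 10.82, 8.57 and 9.05 in YR, 8.34, 8.39 and 8.53 in OSR, and 8.81, 8.60 and 8.66 in OR. The value of 10.82 in YR replicate 1 stood apart from the other 11 arrays, and the slow muscle markers Myh7 (12.49) and Tnnt1 (11.81) were also highest on that array. YSR minus YR was -0.78 (SE 0.412, limma adjusted p = 0.991), and -0.11 (SE 0.198) without YR replicate 1.

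Pyruvate dehydrogenase kinases inhibit the pyruvate dehydrogenase complex, so that less pyruvate is oxidized in the mitochondria. Pdk1, a known hypoxia target, was at 10.08, 10.48 and 10.16 in YSR, 10.08, 10.46 and 10.35 in YR, 9.83, 10.16 and 10.37 in OSR, and 9.76, 9.60 and 9.79 in OR. All OR arrays were below every other array. YR minus OR was 0.58 (SE 0.167, limma unadjusted p = 0.00424, adjusted 0.342), OSR minus OR 0.40 (SE 0.167, limma adjusted p = 0.901) and old minus young -0.35 (SE 0.118, limma adjusted p = 0.396). With the macrophage marker level as a term, YR minus OR was 0.39 (SE 0.248) and old minus young -0.20 (SE 0.184). Pdk2 ranged from 7.39 to 9.42 and Pdk3 from 9.75 to 10.46. For Pdk2 the slope on the muscle marker level was 0.27 (SE 0.0751) and did not pass (limma adjusted p = 0.230), with r = 0.787 (permutation p = 0.00375, adjusted 0.166), rho = 0.874 (permutation p = 0.00054, adjusted 0.105) and r = 0.876 without the 2 lowest arrays. Of the other glycogen phosphorylases, Pygl ranged from 10.69 to 11.82, and Pygb was at 10.79, 10.60 and 10.34 in YSR, 10.30, 10.30 and 10.06 in YR, 10.34, 10.31 and 10.14 in OSR, and 10.31, 10.24 and 9.91 in OR. YSR lay above YR without overlap, and the old groups overlapped. For Pygb, YSR minus YR was 0.36 (SE 0.153, limma unadjusted p = 0.0359, adjusted 0.991) and rigid minus semi-rigid -0.24 (SE 0.108, limma adjusted p = 0.845).

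**Figure D3:**
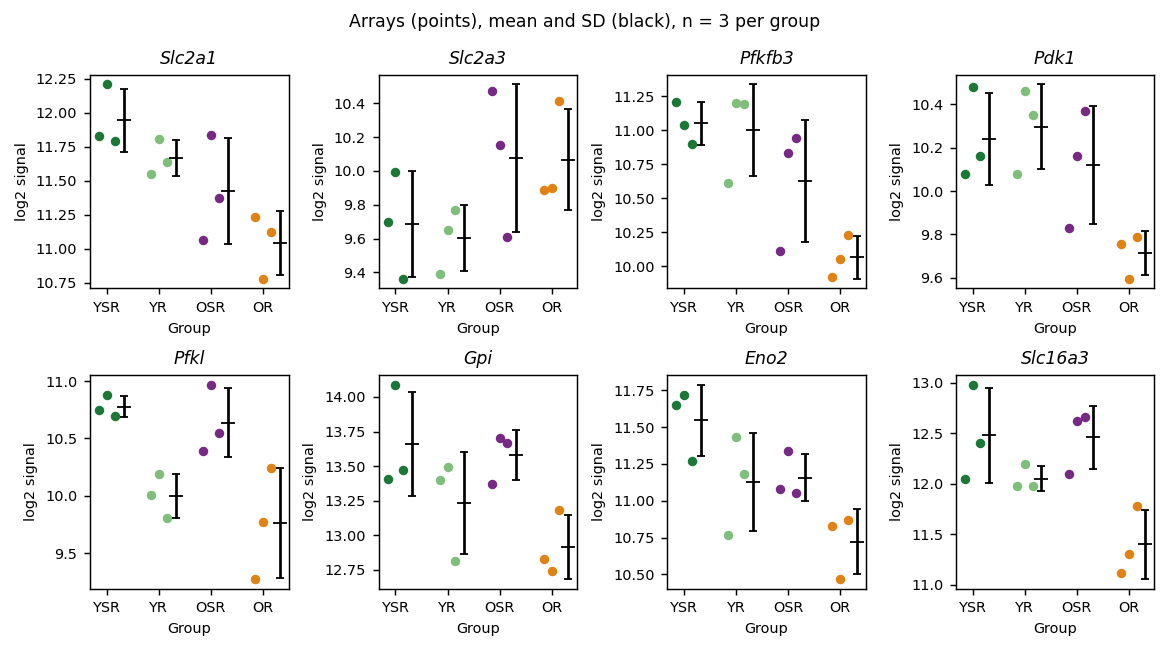
Log2 signal of 8 members by group, 1 coloured point per array, with the group mean and SD in black (n = 3, separate vertical scales that do not start at 0). OR is the lowest group mean for all but Slc2a3, and only Pfkl separates all semi-rigid from all rigid arrays.

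Hypoxia-inducible factors are known to bind ACGTG or GCGTG cores near glycolytic genes. ACGTG, on either strand, was present in 13 of 30 member promoters (43.3%) against 16.6% of all promoters, and GCGTG in 13 of 30 (43.3%) against 25.9%. The palindrome CACGTG holds ACGTG on both strands and counts for each. The promoters of Slc2a1 (chr5:138002272-138002521, plus strand) and Pfkfb3 (chr17:71944683-71944932, plus strand) are shown because these members had the lowest unadjusted p-values for age. Capitals mark ACGTG or GCGTG on either strand, which also read as CACGT or CACGC. Slc2a1 held 1 ACGTG and 3 GCGTG, and Pfkfb3 held 1 CACGTG. The promoter of Pfkm (chr7:131113849-131114098, plus strand) is printed with them as that of the muscle isoform whose slope did not pass, and it held 1 ACGTG. The table gives the sequence alone, and no binding was measured.
Slc2a1: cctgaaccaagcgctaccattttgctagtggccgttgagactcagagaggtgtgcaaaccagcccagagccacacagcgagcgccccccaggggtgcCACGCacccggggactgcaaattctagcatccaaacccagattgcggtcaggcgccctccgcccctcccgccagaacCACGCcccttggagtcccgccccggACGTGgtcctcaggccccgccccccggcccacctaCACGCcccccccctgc
Pfkfb3: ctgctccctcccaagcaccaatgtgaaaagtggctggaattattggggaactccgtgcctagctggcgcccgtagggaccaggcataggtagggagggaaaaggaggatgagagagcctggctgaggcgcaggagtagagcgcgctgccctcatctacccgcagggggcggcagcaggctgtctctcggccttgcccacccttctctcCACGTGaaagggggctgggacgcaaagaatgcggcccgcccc
Pfkm: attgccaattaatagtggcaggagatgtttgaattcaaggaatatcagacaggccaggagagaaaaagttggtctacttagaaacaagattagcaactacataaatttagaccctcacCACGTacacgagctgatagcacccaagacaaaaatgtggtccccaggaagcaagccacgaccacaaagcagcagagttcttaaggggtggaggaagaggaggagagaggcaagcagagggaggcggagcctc

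Counts over the members are given for each comparison in turn, beside the shares of all probe sets. OSR minus OR was above 0 for 28 of 33 members (48.8% of all probe sets) with a median of 0.35 against -0.01 over all probe sets. At an unadjusted limma p under 0.05, 6 members were positive (2.43% of all probe sets), namely Gpi, Pfkl, Pfkfb3, Eno2, Slc16a3 and Pdk1, and 0 negative (2.83%). Without overlap, 7 members were higher on all OSR than on all OR arrays (5.04% of all probe sets), Gpi, Pfkl, Tpi1, Eno2, Ldha, Slc16a3 and Pdk1, and Ldhb was lower (5.74%). In young rats, YSR minus YR was above 0 for 18 of 33 (52.6%) with a median of 0.05 against 0.02. There 3 were positive (2.77%), Pfkl, Eno2 and Pygb, and 0 negative (1.6%). Without overlap, 4 were higher on all YSR than on all YR arrays (5.73%), Pfkl, Pfkp, Pfkfb1 and Pygb, and 0 lower (3.65%).

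**Figure D4:**
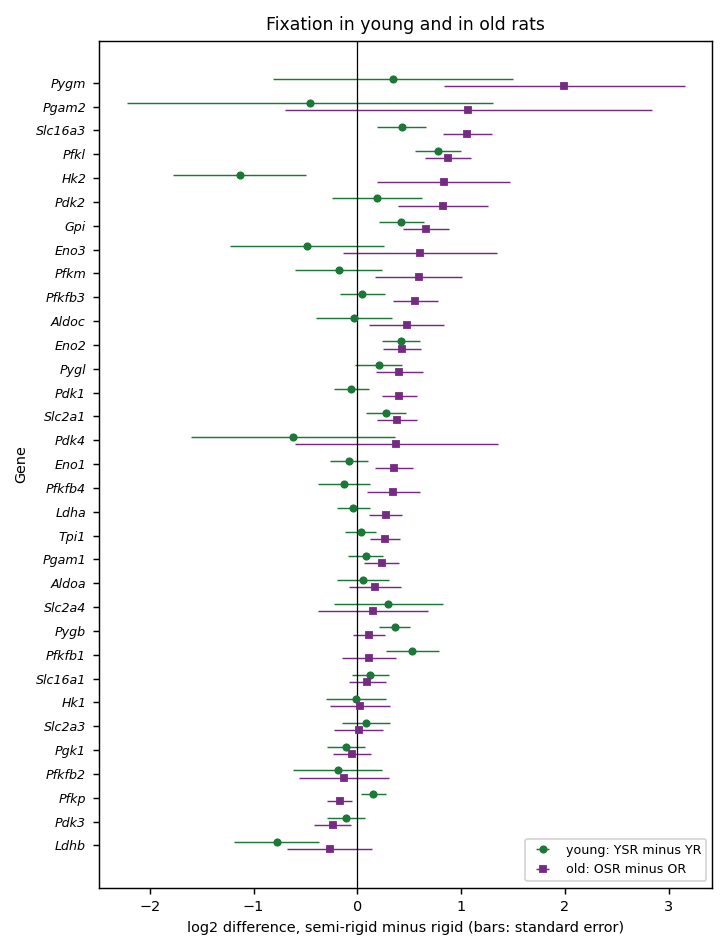
Difference in log2 signal between semi-rigid and rigid fixation for each member in young (circles) and old rats (squares), with standard errors from limma. In old rats 28 of 33 members lie above 0 and in young rats 18, and Pfkl lies near 0.8 in both, while the errors of Pgam2, Pygm, Eno3, Pdk4 and Hk2 are the widest.

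The difference between the ages in that fixation effect, the interaction, was tested for each gene. It was above 0 for 7 of 33 members (52.5% of all probe sets), with a median of -0.23 against 0.03 over all probe sets. None passed an unadjusted limma p under 0.05 in either direction (2.37% of all probe sets positive, 1.43% negative). A different response to fixation in young and old rats was therefore not detectable for these genes with 3 arrays per group.

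Under rigid fixation, YR minus OR was above 0 for 25 of 33 members (45.8% of all probe sets), with a median of 0.32 against -0.04. At an unadjusted limma p under 0.05, 7 were positive (3.54%), namely Slc2a1, Tpi1, Pfkfb3, Eno1, Eno3, Slc16a3 and Pdk1, and 0 negative (4.8%). The YR and OR arrays did not overlap for 11 members that were higher in YR (6.04%) and for Slc2a3, Pfkp and Pfkfb1, which were higher in OR (7.75%). YSR minus OSR was above 0 for 21 of 33 (49.8%) with a median of 0.05, and only Slc2a1 was positive at an unadjusted p under 0.05 (2.33%), with 0 negative (2.03%). Averaged over fixation, old minus young was above 0 for 8 of 33 members (53.1%). It was negative at that p for 5 members (3.89%) and positive for Slc2a3 (4.7%). Averaged over age, rigid minus semi-rigid was above 0 for 7 of 33 members (49.5%). It was negative for 6 (3.2%), Slc2a1, Gpi, Pfkl, Eno2, Slc16a3 and Pygb, and positive for 0 (2.53%). These comparisons share arrays, OR above all, and are not independent of each other. Those with YR also carry its higher 3' to 5' ratio of Gapdh, described above.

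The muscle marker level was 10.39 to 11.28 on the YR and 6.53 to 10.58 on the OR arrays, which overlapped, and the macrophage marker level was higher on every YR than on every OR array. Among the macrophage markers, Lyz2 had a higher mean in OR (15.34, against 15.17 in YR), and Ctss overlapped between these groups. With the muscle marker level as a term in limma, YR minus OR was above 0 for 20 of 33 members with a median of 0.16. It moved from 2.93 (SE 1.77) to -0.22 (SE 0.676) for Pgam2, from 1.83 (SE 1.16) to -0.27 (SE 0.380) for Pygm and from 1.64 (SE 0.740) to 0.30 (SE 0.259) for Eno3. Slc16a3 moved from 0.65 to 0.59 and Pdk1 from 0.58 to 0.48. The muscle and macrophage marker levels were correlated (r = 0.79, and 0.78 for deviations from group means), so that their terms are not separate adjustments. With the macrophage marker level instead, 19 of 33 were above 0 with a median of 0.05. Pgam2 was then at -3.21 (SE 1.38) and Pygm at -1.88 (SE 1.10). Slc16a3 was then again at 0.59 (SE 0.367), Pdk1 at 0.39 (SE 0.248), Slc2a1 at 0.30 (SE 0.275), Tpi1 at 0.22 (SE 0.217) and Eno2 at 0.06 (SE 0.257). No member was called with either term.

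**Figure D5:**
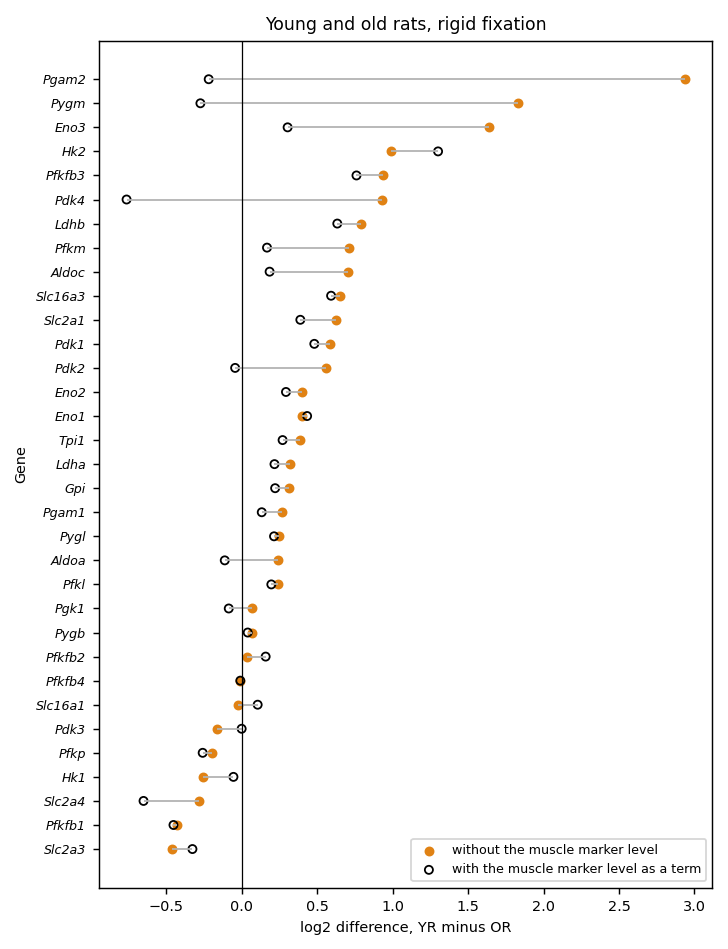
Difference in log2 signal YR minus OR for each member without (filled) and with (open) the muscle marker level as a term, joined by a line. Pgam2, Pygm, Eno3 and Pdk4 move farthest, and Pfkfb3, Slc16a3 and Pdk1 stay above 0.

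Of 73 further genes of sugar metabolism and its control, chosen as enzymes, transporters and regulators of connected pathways, 61 were measured and 0 were called in any comparison (limma, shares of all probe sets as above). At an unadjusted p under 0.05, YR minus OR was positive for 5 of the 61 (3.54% of all probe sets) and negative for 3 (4.8%). OSR minus OR was positive for 4 (2.43%) and negative for 3 (2.83%). Gys1, the glycogen synthase of muscle and most tissues, was at 10.47, 10.87 and 10.40 in YSR, 10.74, 10.50 and 10.59 in YR, 10.10, 10.79 and 10.37 in OSR, and 9.90, 9.30 and 9.59 in OR. The OR arrays lay below every other array. YR minus OR was 1.01 (SE 0.202, limma unadjusted p = 0.000259, adjusted 0.207) and OSR minus OR 0.83 (SE 0.202, limma adjusted p = 0.872). The interaction for Gys1 was -0.86 (SE 0.285, limma unadjusted p = 0.0105, adjusted 0.990).

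Epas1 (HIF-2 alpha), the hypoxia-inducible factor abundant in endothelium, ran opposite to Gys1. It was at 10.32, 9.84 and 9.89 in YSR, 9.99, 10.09 and 10.33 in YR, 11.26, 10.31 and 10.03 in OSR, and 11.92, 12.09 and 11.16 in OR. OSR replicate 1 was above the lowest OR array, and the other OSR arrays were at the young level. YR minus OR was -1.59 (SE 0.300, limma unadjusted p = 0.000163, adjusted 0.202). The interaction for Epas1 was 1.08 (SE 0.424, limma unadjusted p = 0.0253, adjusted 0.990). The paper lists Epas1 among the genes with an interaction of age and fixation in its analysis of variance. Its threshold there was a p under 0.05, with no adjustment over genes stated. The genes had been preselected by fold change and a first analysis of variance, so that the thresholds and gene sets differ from those here. Pck1, the gluconeogenic enzyme also abundant in fat, had YR minus OR of -2.45 (SE 0.771, limma adjusted p = 0.389). The means of 5 endothelial and 6 adipocyte markers were also higher on every OR than on every YR array. They were 10.04 to 11.03 and 8.74 to 9.34 in OR, and 9.22 to 9.70 and 6.82 to 7.89 in YR. Among the adipocyte markers, Adipoq, Plin1 and Cidec had higher means in OR. Fabp4 and Lep were close (13.26 and 2.94 in YR, 13.41 and 3.08 in OR), and Lpl was lower in OR (13.38 in YR, 13.09 in OR). The part of these cell types in the differences of Epas1 and Pck1 was not tested.

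Several members had dimmer probe sets as well. For 14 of the 33 members there was more than 1 probe set, 34 for these 14 and 53 for all 33. No dimmer probe set was called in any comparison. In YR minus OR 16 of the 20 dimmer ones had the sign of the brightest, and likewise 16 for fixation averaged over age. The count was 15 in OSR minus OR, 14 in YSR minus OSR and 12 in the interaction. It was only 11 of 20 in YSR minus YR and for age averaged over fixation.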

How the data were processed

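Hematoma RNA of 4 rat groups was hybridized to 12 Affymetrix arrays of 1 colour. The authors deposited linear signal intensity values, each array scaled to a trimmed mean of 500.2, and the processing notes name GCOS 1.2, whereas the methods name PLIER. Scan files were not used here. Array number limits the precision.

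Values were floored at 1 and log2-transformed. Without the 57 controls, hexokinase controls included, 31042 probe sets were tested. Symbols came from the platform annotation (20832 probe sets with 1 symbol, 436 with several, 9831 unnamed). Group differences came from limma 3.58.1 in R 4.3.3 (lmFit, then eBayes using an intensity trend, 8 residual degrees of freedom), with Benjamini-Hochberg adjustment over all probe sets and calls at an adjusted p under 0.05. The script was tested on simulated data. Slopes on the muscle marker level were fitted within groups, and correlations used 100000 two-sided permutations, both adjusted over all probe sets. Motifs were searched in the RefSeq promoters of GRCr8 with Python 3.11.15.

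The members and gene lists were chosen with earlier results of these data known. Named with full values were members at an unadjusted p under 0.05 in a comparison, the 3 of largest difference in each, Pfkm, Pgam2, Eno3, Pfkl, Pgk1 and Pfkfb3 by rule, and for other pathway genes some of the 3 with the smallest p in each comparison. Pdk2, Pdk4, Slc2a4, Aldoa and Aldoc were singled out after their values were seen. Alternatives were quantile normalization, a pseudocount of 16, leaving out dim probe sets (mean under 7.16), no intensity trend, only the arrays compared, the methods' analysis of variance, the replicate number as a block, the Gapdh ratio as a term, leaving out arrays, every probe set of a member and, chosen after seeing the data, muscle and macrophage marker levels as terms.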

Additional observations from a re-analysis of the deposited data

How the results depend on the processing

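No member was called in any of the 7 comparisons under 23 to 24 alternatives each, and of 1016 alternative values of 45 named differences 991 kept their direction, 0 passed the threshold and 25 turned. All turned values belong to Pgam2, Pygm, Eno3 and Hk2. With the muscle marker level as a term, Pgam2 was -0.85 in OSR minus OR, -0.22 in YR minus OR and 0.75 in the interaction, and Pygm -0.27 in YR minus OR and 0.34 for age. With the macrophage marker level, Pgam2 was -2.67 in OSR minus OR, -1.87 in YSR minus OSR, -3.21 in YR minus OR, 2.54 for age and 1.33 in the interaction. Pygm was then -0.27, -1.88, 1.84, 0.23 and 0.0819 in OSR minus OR, YR minus OR, age, fixation and the interaction, and Eno3 -0.65, -0.60 and 0.62 in YSR minus OSR, YR minus OR and age. Without YSR replicate 1 and OR replicate 1, the arrays of highest Gapdh ratio, Hk2 was 0.00888 in YSR minus OSR. Leaving out 1 array at a time, Pgam2 ranged from -1.02 (without OR replicate 2) to 3.15 in OSR minus OR, from -0.67 (without OSR replicate 1) to 2.78 in YSR minus OSR and from -3.61 to 0.56 in the interaction, Eno3 from -0.27 to 1.08 and Hk2 from -1.48 to 0.00888 in YSR minus OSR. The cause was not tested. The lowest adjusted p of any alternative was 0.0795, for Pfkfb3 by age without OSR replicate 3.

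The slope on the muscle marker level passed for 4 members in the main setting and for 4 to 5 when 1 array was left out, but for 1 (Pygm) without the 2 arrays of lowest level, where Pgam2 was 0.90, Pdk4 1.01 and Eno3 0.67. Over all probe sets, calls in YSR minus YR went from 0 to 27 without the 2 arrays of highest Gapdh ratio, in YR minus OR from 1 to 14 with only the arrays compared, and for age from 2 to 80 without OSR replicate 3, none of them members. Replicate numbers gave no pairing, since deviations from group means of same-numbered arrays correlated with a median of 0.019 over 18 pairs against 0.020 over 36 others, and with the replicate block 0 members were called in every comparison. With 3 pools per group, small differences could not be detected.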

Other observations

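Of the 61 further genes, YSR minus YR was negative at an unadjusted limma p under 0.05 for Bpgm and Ldhd (1.6% of all probe sets) and positive for 0 (2.77%). Bpgm, which makes the 2,3-bisphosphoglycerate of red cells, was at 13.36, 12.00 and 13.78 in YSR and 13.83, 14.36 and 13.62 in YR (YSR minus YR -0.89, SE 0.378, limma adjusted p = 0.991). The lowest level, 12.00, was in YSR replicate 2, which also had the lowest erythroid marker level (10.09). Among the erythroid markers Hbb went the other way, at 15.75 on that array within a range of 14.73 to 16.12. Each of the other erythroid markers was lowest there. The part of red cells in the Bpgm difference was not tested. Pgd, an enzyme of the pentose phosphate pathway, was at 12.66, 12.49 and 12.82 in OSR and 11.50, 12.00 and 12.61 in OR (OSR minus OR 0.62, SE 0.211, limma adjusted p = 0.896). The interaction for Pgd was -0.66 (SE 0.299, limma unadjusted p = 0.0479, adjusted 0.990). Egln1, the oxygen sensor that marks hypoxia-inducible factors for breakdown, had a rigid minus semi-rigid difference of -0.28 (SE 0.115, limma adjusted p = 0.845).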
